A study of Drosophila melanogaster with 14 samples.

Results

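Yorkie (Yki) and GAGA factor (GAF) were compared site by site in Drosophila melanogaster embryos through their lists of ChIP-seq peaks, the regions where immunoprecipitated fragments pile up. The members were all 3749 peaks of the Yki embryo list and all 6470 peaks of the GAF embryo list, 10219 of the 29537 peaks in the 5 lists of the series. Both lists came from whole embryos of Iso1, the strain from which the fly reference genome was made, aged 8 to 16 hours after laying, with 3 libraries for each antibody (anti-Yki and anti-Trl) and 1 library of input chromatin without antibody. All these embryos shared strain and age, and no mutation, transgene or drug is named for any of them. Each antibody has 1 deposited list for its 3 libraries, so a peak carries no value per replicate and the spread between replicates cannot be given. Intervals in the text are 95% Wilson intervals that cover counting error only, neighbouring peaks are not independent of each other, and depth is unknown. A whole embryo mixes many tissues, and whether both proteins sat on a site in the same cells was not measured.

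Yki is the coactivator at the end of the Hippo pathway, a kinase cascade that limits organ growth by keeping Yki out of the nucleus. It does not bind DNA itself and is brought to genes by partners such as the TEAD-family protein Scalloped. GAF is the product of the Trithorax-like gene (Trl). It binds directly to GA-rich sequence, helps to displace nucleosomes and keeps promoters and enhancers accessible. H3K4me3, trimethylated lysine 4 of histone H3, marks promoters in active use. A second pair of Yki and GAF lists from wing imaginal discs, larval epithelia that later become wings, and an embryo H3K4me3 list serve as further readouts at the embryo sites and, for a few values, as a comparison.

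Yki peaks were mostly narrow intervals enclosed in broader GAF peaks. Of the Yki peaks, 68.8% (2580 of 3749) shared at least 1 bp with a GAF peak, whereas 7.52% of the 500 bp tiles of arms 2L, 2R, 3L, 3R and X touched one. They formed 2592 pairs of a Yki with a GAF peak, since only 12 Yki peaks touched 2 GAF peaks and 0 touched more. In 2318 pairs (89.4%, 88.2 to 90.6) the whole Yki peak lay inside the GAF peak. In 254 pairs (9.80%, 8.71 to 11.0) the peaks crossed only at an edge, with a median overlap of 361.5 bp. In 20 pairs (0.772%, 0.50 to 1.19) the Yki peak enclosed the GAF peak, and there the order of widths was turned, with medians of 923 bp for Yki and 331.5 bp for GAF.

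GAF peaks were the broader of the pair in nearly all matches. Yki widths ran from 200 to 5716 bp with quartiles at 300 and 677 bp, and GAF widths from 200 to 27890 bp with quartiles at 352 and 1093 bp. Peaks wider than 1000 bp made up 10.5% of the Yki list and 28.0% of the GAF list. Among the 1749 pairs in which 1 Yki peak met 1 GAF peak and neither met another, the GAF peak was the wider in 1679 (96.0%, 94.97 to 96.8). The median ratio of GAF to Yki width in these pairs was 2.44 (quartiles 1.76 and 3.50). Wider GAF peaks held wider Yki peaks: across the 1749 pairs Spearman's rho of the widths was 0.49, a description over sites that share their libraries. The smallest width was 200 bp and the smallest gap between neighbours 51 bp in both lists, and the same limits were found in the other 3 lists, so very short peaks and very close neighbours were not listed for either protein.

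Most GAF peaks held no Yki peak, and those that did usually held 1. A Yki peak was absent from 4352 of the 6470 GAF peaks (67.3%, 66.1 to 68.4) and present in 2118 (32.7%), where 3.13% of 500 bp tiles touched a Yki peak. In the wing disc lists, for comparison, 51.8% of GAF peaks held Yki. Of these 2118, 1770 (83.6%, 81.9 to 85.1) held 1, 263 (12.4%, 11.1 to 13.9) held 2, 64 held 3 and 21 held 4 or more, with 13 as the highest number. The 348 GAF peaks with 2 or more were 16.4% (14.9 to 18.1) of the GAF peaks with Yki, and contained 821 of the 2580 Yki peaks on GAF (31.8%). A count of joint Yki peaks therefore exceeds the number of joint GAF peaks, with a mean of 1.22 Yki peaks per GAF peak that had any.

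Narrow GAF peaks hardly ever held Yki and wide ones nearly always did. In the narrowest decile, 200 to 255 bp, 13 of 649 GAF peaks (2.00%, 1.17 to 3.40) held Yki, and in the third decile, 325 to 391 bp, 13 of 646 (2.01%, 1.18 to 3.41). These shares lie close to the 2.45% of 250 bp tiles that touched a Yki peak, and both intervals include that background. The share rose to 20.2% (17.3 to 23.5) at 584 to 728 bp, 64.0% (60.2 to 67.6) at 945 to 1307 bp and 95.2% (93.3 to 96.6) in the widest decile, from 2019 bp. All 22 GAF peaks wider than 8000 bp held Yki. The rise was steep between 584 and 1307 bp, where the median GAF width of the deciles went from 650 to 1093 bp. A wide peak offers more room for an overlap. Per 10 kb of GAF peak, pairs with Yki numbered 0.886 in the narrowest decile, 3.17 at 584 to 728 bp and 5.96 at 945 to 1307 bp. They then numbered 5.70 at 1308 to 2015 bp and 4.46 in the widest decile. Up to 1307 bp the pairs thus rose faster than the length covered, and beyond it they did not. The part of room in the rise was not tested. Peak width also grows with signal strength and with depth, and the embryo lists hold no score, so width cannot be told apart from strength of binding.

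**Figure D1:**
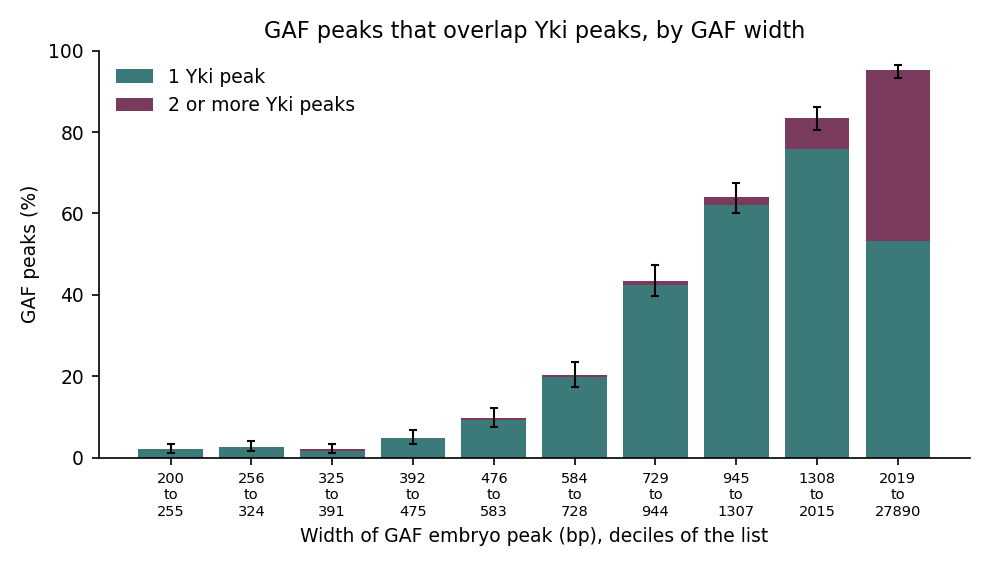
Share of GAF embryo peaks that overlap a Yki embryo peak (y axis, percent) in deciles of GAF peak width (x axis, bp), split into GAF peaks with 1 and with 2 or more Yki peaks. Bars on the total are 95% Wilson intervals. The total runs from 2.00% in the narrowest decile to 95.2% in the widest, and 271 of the 348 GAF peaks with 2 or more Yki peaks stand in the widest decile.

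The Yki list showed the same direction with a much gentler slope. Of the Yki peaks of 200 to 300 bp, 48.5% (45.3 to 51.7) lay on GAF, and of those of 678 bp and above 88.0% (85.8 to 90.0). A narrow Yki peak thus still met a GAF peak in 456 of 941 cases, while a GAF peak of 200 to 352 bp met a Yki peak in 36 of 1618.

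GAF peaks with several Yki peaks were wide, and more Yki peaks came with more width. The median GAF width was 429 bp with 0 Yki peaks, 1252 bp with 1, 2571 bp with 2, 4509 bp with 3 and 6490 bp with 4 or more. The Yki peaks themselves were not narrower in the crowded GAF peaks. Their median width was 487.5 bp in GAF peaks with 1, 534.5 bp with 2 and 602.5 bp with 3 or more, against 326 bp for Yki peaks off GAF. Whether broad Yki signal was split into several peaks was not tested. Width did not fix the number. Among GAF peaks of 2000 to 4000 bp, 30 held 0 Yki peaks, 309 held 1, 133 held 2 and 26 held 3 or more, at median widths of 2459.5, 2460, 2665 and 3222.5 bp.

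A single Yki peak sat near the centre of its GAF peak. Of all Yki peaks, 2494 had their midpoint inside a GAF peak, and 1988 of these midpoints (79.7%) fell in the middle 50% of the GAF peak, where an even spread would put 50%. In GAF peaks with 1 Yki peak the concentration was stronger, with 1540 of 1707 midpoints (90.2%, 88.7 to 91.5) in the middle 50% and a median distance of 106.5 bp between the midpoints of Yki and GAF. In these, 47.9% (45.6 to 50.3) of Yki midpoints were within 100 bp of the GAF midpoint. No side was preferred: 842 of the 1707 (49.3%, 47.0 to 51.7) lay at the lower coordinate. An enclosed peak cannot have its midpoint at the very edge, so position was also measured in the room left by the Yki peak's own width, a measure chosen after the data were seen. On that scale 1145 of 1570 enclosed single Yki peaks (72.9%, 70.7 to 75.1) lay in the middle 50%, still above 50%.

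From 584 bp upward, the fit at the centre loosened with GAF width. With 1 Yki peak, the share in the middle 50% of the room left was 68.0% (54.2 to 79.2, n = 50) in GAF peaks of 353 to 583 bp. The share was highest, 86.0% (82.7 to 88.7), in GAF peaks of 584 to 1093 bp and fell to 66.6% (63.6 to 69.4) from 1094 bp. It was 59.3% (53.6 to 64.7) from 2000 to 4000 bp and 51.2% (36.5 to 65.7, n = 41) from 4001 to 8000 bp, where the interval includes 50%. From 584 bp, the median distance from the GAF midpoint rose in the same order, from 64 bp to 167 bp, 352.5 bp and 752.5 bp.

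**Figure D2:**
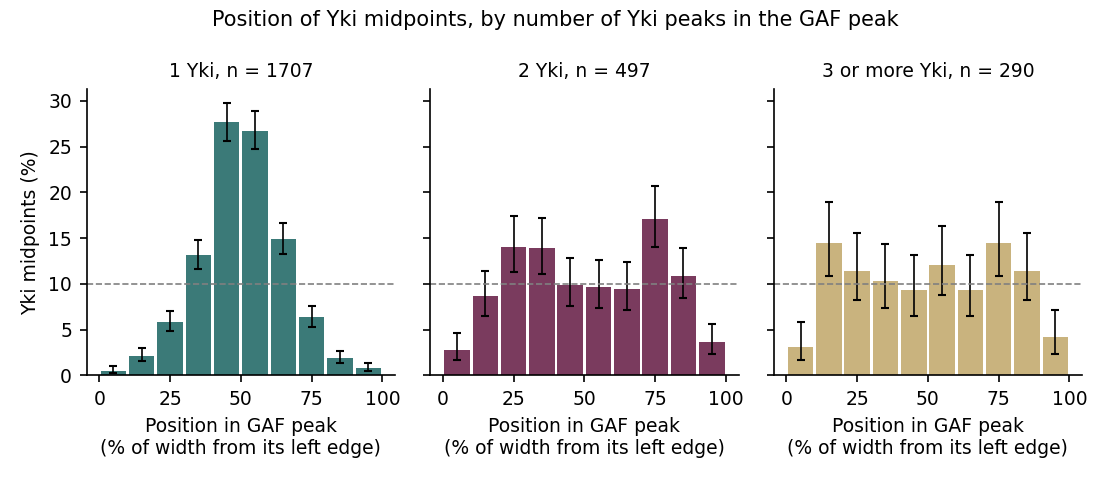
Position of Yki midpoints inside GAF embryo peaks (x axis, percent of GAF width from its left edge) in GAF peaks with 1, 2 and 3 or more Yki peaks, as the percent of midpoints in each of 10 equal parts of the width (y axis). Bars are 95% Wilson intervals and the dashed line is an even spread. Single Yki peaks pile up at the centre, with 27.7% and 26.8% in the middle pair of parts, whereas pairs of Yki peaks stand highest at the sides, with 14.1% in the third part and 17.1% in the eighth.

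Where a GAF peak held 2 Yki peaks, they mostly lay on opposite sides of its midpoint. Both midpoints lay inside in 237 GAF peaks, and in 202 of these (85.2%, 80.2 to 89.2) there was 1 on each side of the GAF midpoint. They were a median of 1069 bp apart (quartiles 771.5 and 1593.5), which was 42.0% of the GAF width. Midpoints so far apart inside 1 peak tend to fall on opposite sides of its centre wherever they lie. The share that this spacing alone would give was not measured. The nearer Yki peak was a median of 364 bp from the GAF midpoint and the farther 774.5 bp. The nearer was the wider of the 2 in 154 of 237 (65.0%, 58.7 to 70.8). In GAF peaks with 3 or more Yki peaks, 53.1% (47.4 to 58.8) of 290 midpoints fell in the middle 50%, with 50% inside the interval. Several peaks in 1 GAF peak keep each other apart, so these positions are not independent.

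Most Yki peaks off GAF were more than 1 kb from the nearest GAF peak. The share of the arms that lies at each distance from a GAF peak was not measured. Of the 1169 Yki peaks without GAF, 208 (17.8%, 15.7 to 20.1) had a GAF peak edge within 1 kb and 254 (21.7%, 19.5 to 24.2) within 1 to 5 kb. A further 421 (36.0%, 33.3 to 38.8) were 5 to 20 kb away and 286 (24.5%, 22.1 to 27.0) farther, with a median gap of 7874 bp. Among Yki embryo peaks, 72.2% overlapped a GAF wing disc peak, and the share fell with the distance to the nearest GAF embryo peak. It was 91.5% (90.3 to 92.5) on a GAF embryo peak, 52.9% (46.1 to 59.6) within 1 kb, 31.9% (26.5 to 37.9) at 1 to 5 kb, 28.5% (24.4 to 33.0) at 5 to 20 kb and 12.6% (9.23 to 16.9) beyond. Overlap with embryo H3K4me3, 45.2% over all Yki peaks, ran differently: 40.3% on GAF, then 58.2% (51.4 to 64.7), 58.7% (52.5 to 64.5) and 58.4% (53.7 to 63.0) in the 3 nearer distance classes and 47.9% (42.2 to 53.7) beyond 20 kb. The median width of these Yki peaks was 316.5 to 336 bp in each distance class, so width did not change with distance.

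The GAF peaks with Yki were also those most often found with the other lists, at matched width. Of all GAF embryo peaks, 24.6% overlapped an H3K4me3 peak, 59.2% a GAF wing disc peak and 34.7% a Yki wing disc peak. In the widest quartile, from 1094 bp, H3K4me3 overlapped 14.8% (10.8 to 19.9) of the 230 GAF peaks without Yki, 50.9% (47.9 to 53.9) of the 1060 with 1 Yki peak, 69.4% (63.4 to 74.9) of those with 2 and 84.7% (75.6 to 90.8) of those with 3 or more. In the narrowest quartile, where only 36 GAF peaks held Yki, H3K4me3 overlapped 21 of the 35 with 1 Yki peak (60.0%, 43.6 to 74.4) and 7.71% (6.50 to 9.13) of the 1582 without. Overlap with the Yki wing disc list went the same way, with 29.1% (23.6 to 35.3), 75.3% (72.6 to 77.8), 85.1% (80.1 to 89.1) and 96.5% (90.1 to 98.8) in the widest quartile. Median GAF width also rose along this series, from 1406 bp without Yki to 1670.5, 2661 and 5043 bp, so part of the step between the counts of Yki peaks cannot be told apart from width.

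In the wing disc lists the authors gave every peak a score, on a scale that is not stated, which ranks peaks within a list. Where GAF embryo peaks of the widest quartile met GAF wing disc peaks, the median of the highest score met was 81.2 without Yki, 297 with 1 Yki peak, 341 with 2 and 395 with 3 or more. GAF embryo peaks of the widest quartile without embryo Yki thus had the lowest median of the highest score met. Median GAF width rose over the same classes, from 1406 to 5043 bp, and a wide peak can meet more wing disc peaks. The order of scores cannot be told apart from width.

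**Figure D3:**
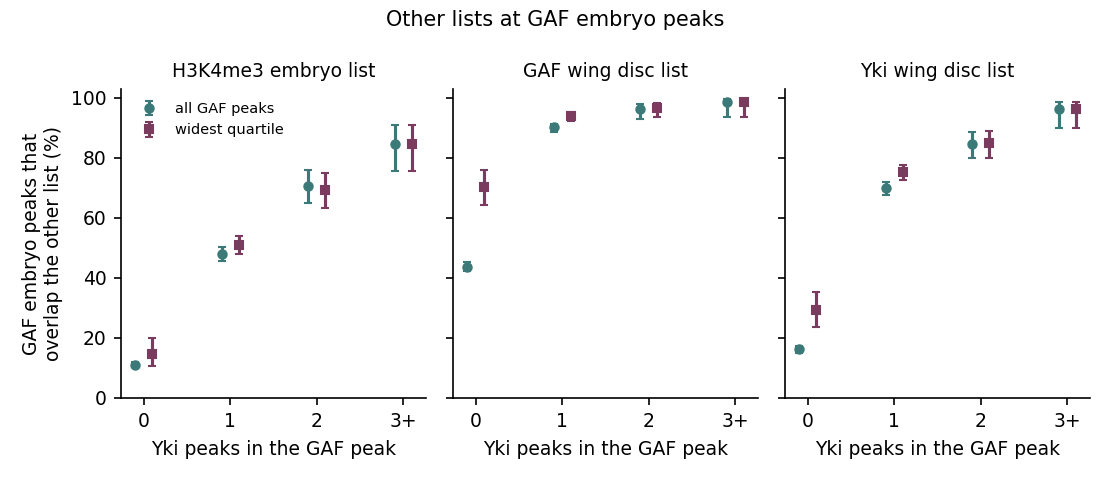
Share of GAF embryo peaks that overlap the H3K4me3 embryo, GAF wing disc and Yki wing disc lists (y axis, percent) by the number of Yki embryo peaks they hold (x axis), for all GAF peaks and for the widest quartile (from 1094 bp). Bars are 95% Wilson intervals. Each share is lowest with 0 Yki peaks, and for H3K4me3 in the widest quartile it goes from 14.8% to 84.7%.

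GAF peaks with more Yki peaks in embryos also held more Yki peaks in wing discs. Among GAF embryo peaks of 2000 to 4000 bp, the mean number of Yki wing disc peaks was 0.70 with 0 Yki embryo peaks, 1.13 with 1, 1.53 with 2 and 1.96 with 3 or more. The mean number of GAF wing disc peaks in the same 4 classes was 1.27, 1.17, 1.13 and 1.19. At least 2 Yki wing disc peaks were present in 25.6% (21.0 to 30.7) of those with 1 Yki embryo peak, 51.1% (42.7 to 59.5) with 2 and 76.9% (57.9 to 89.0, n = 26) with 3 or more. Among GAF peaks over 4000 bp both counts rose: with 1, 2 and 3 or more Yki embryo peaks the mean number of Yki wing disc peaks was 1.47, 2.09 and 3.27, and that of GAF wing disc peaks 1.67, 1.704 and 2.17. Median GAF width in these classes was 4862, 4986 and 6214 bp.

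Along the chromosome arms both lists were clustered. The median distance between neighbouring midpoints on 2L, 2R, 3L, 3R and X was 14.1 kb for Yki (mean 33.1 kb) and 7.16 kb for GAF (mean 18.6 kb). Independent placing would give a coefficient of variation of 1, and the distances had 1.51 for Yki and 1.62 for GAF. Neighbours closer than 5 kb made up 30.7% (29.3 to 32.3) of Yki and 43.5% (42.3 to 44.7) of GAF distances, where exponential distances of the same means give 14.0% and 23.6%. For Yki peaks on GAF the coefficient was 1.52, and for those off GAF 1.19, with a median distance of 69.7 kb. At short range the Yki peaks off GAF were clustered as well, with 13.8% (11.8 to 16.0) of distances under 5 kb where exponential distances give 4.30%. Midpoints of GAF peaks with Yki were rarely within 1 kb of each other: 7 of 2091 distances (0.335%, 0.162 to 0.689), against 480 of 4257 (11.3%, 10.4 to 12.3) among GAF peaks without Yki. Over longer distances both were clustered. Under 5 kb lay 12.2% (10.9 to 13.7) of distances with Yki, where exponential distances give 8.59%. Without Yki it was 34.8% (33.4 to 36.2), where exponential distances give 16.5%. The coefficients of variation were 1.32 and 1.54. Peaks with Yki were the wider, which limits how close their midpoints can be, and the part of width in these differences was not tested.

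**Figure D4:**
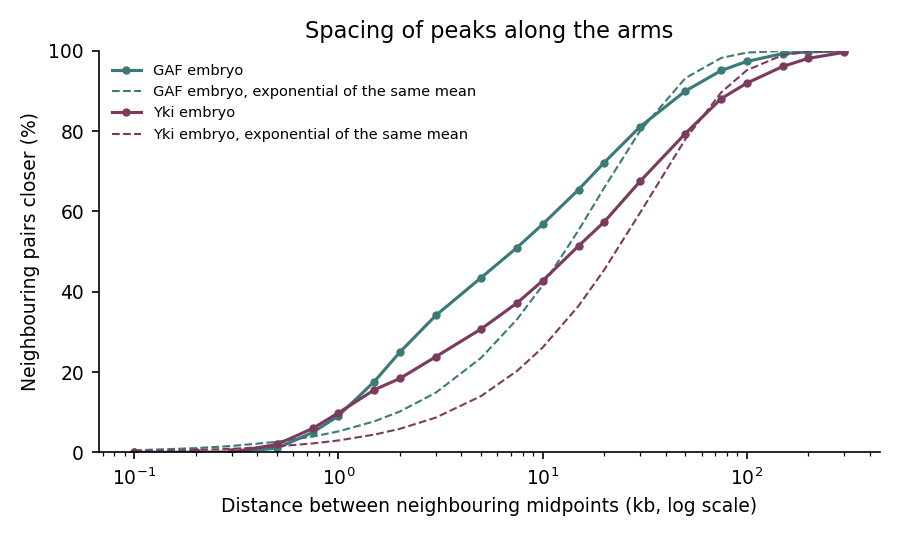
Share of neighbouring pairs of midpoints that are closer than a given distance (y axis, percent; x axis, kb, log scale) for the GAF and Yki embryo lists on 2L, 2R, 3L, 3R and X, with dashed curves for exponential distances of the same mean. Both lists lie above their dashed curve at 5 kb, with 43.5% against 23.6% for GAF and 30.7% against 14.0% for Yki.

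GAF peaks in dense runs held Yki less often than lone GAF peaks of the same width. Peaks were joined into chains when neighbours of the same list were at most 5 kb apart. Lone GAF peaks numbered 2156, and 2158 GAF peaks stood in chains of 4 or more. Yki was present on 33.8% (31.8 to 35.8) of the lone peaks and 30.5% (28.6 to 32.5) of the peaks in chains of 4 or more, so that the odds were 0.862 times as high (0.759 to 0.980). The two-sided Fisher's exact p was 0.0245, or 0.0333 once adjusted over 8 tests. Over deciles of GAF width the Mantel-Haenszel odds ratio was 0.398 (0.326 to 0.486). In the class of 588 to 1104 bp the share with Yki was 46.9% (43.0 to 50.9) for lone peaks, 37.9% (33.8 to 42.2) in chains of 2 to 3 and 24.1% (20.4 to 28.2) in chains of 4 or more. From 1105 bp the shares were close, at 87.7% (84.2 to 90.5), 88.4% (85.4 to 90.8) and 83.0% (79.9 to 85.8), with overlapping intervals. The unstratified contrast was not past the threshold with chains joined over 10 kb (odds ratio 0.919, Fisher's exact p = 0.223), where the Mantel-Haenszel value was 0.487. With a reciprocal overlap of 50% the unstratified odds ratio was 0.428 (0.342 to 0.535).

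Although single peaks of a chain held Yki less often, nearly every long chain held Yki somewhere. Of 336 chains of 4 or more GAF peaks, 307 contained a GAF peak with Yki, and 73 of the 75 chains of 8 or more did. Of all GAF peaks 32.7% held Yki, and each further peak gives a chain another chance to hold it. The share of chains expected from that alone was not measured, so these counts show no property of long chains. The widest GAF peak of the chain held Yki in 290 of 336 chains (86.3%, 82.2 to 89.6) and the other GAF peaks in 369 of 1822 cases (20.3%, 18.5 to 22.2). These shares follow the order of width seen in the whole list, where 85.8% of GAF peaks in the widest quartile held Yki.

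**Figure D5:**
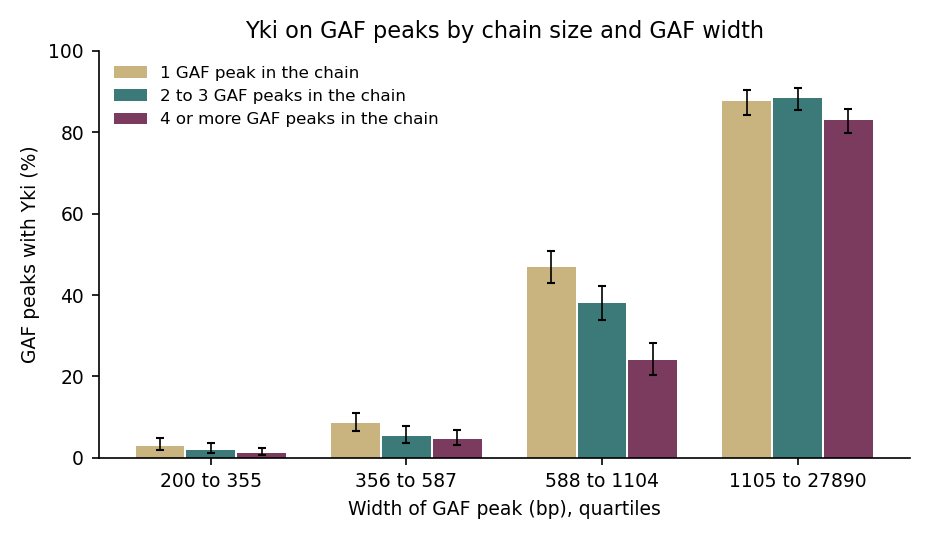
Share of GAF embryo peaks with a Yki peak (y axis, percent) in quartiles of GAF width on 2L, 2R, 3L, 3R and X (x axis, bp), for GAF peaks that are alone and for those in chains of 2 to 3 and of 4 or more with gaps of at most 5 kb. Bars are 95% Wilson intervals. At 588 to 1104 bp the share falls from 46.9% for lone peaks to 24.1% in chains of 4 or more.

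Yki peaks in longer Yki chains lay on GAF more often, here without classes of width. The share on GAF was 66.1% (63.9 to 68.3) for 1698 lone Yki peaks and 73.2% (70.9 to 75.4) for 1448 in chains of 2 to 3. It was 82.3% (78.1 to 85.8) for 378 in chains of 4 to 7 and 92.4% (83.5 to 96.7) for 66 in chains of 8 or more. Those 66 stood in only 7 chains, and 13 of them lay under 1 GAF peak, so the interval counts linked peaks as separate. A GAF peak that encloses several Yki peaks can place them in 1 chain and on GAF together. Median Yki width rose alongside, from 421 bp for lone peaks to 590.5 bp in the longest chains, and its part in this order was not tested.

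Counts of both proteins moved together over wider stretches. Of 1192 regions of 100 kb, 967 (81.1%, 78.8 to 83.2) held both, 145 (12.2%, 10.4 to 14.1) GAF alone, 21 (1.76%, 1.16 to 2.68) Yki alone and 59 neither. A region held a mean of 3.01 Yki and 5.33 GAF peaks, so many would hold both even with unlinked counts. The share expected from the 2 lists apart was not measured. Across these regions Spearman's rho of the 2 counts was 0.72, against 0.56 for Yki with H3K4me3 and 0.45 for GAF with H3K4me3, as descriptions over regions that share the same genes and chromatin. The mean number of Yki peaks per region was 1.22 with 1 to 2 GAF peaks (SD 1.46, n = 272 regions), 2.53 with 3 to 5 (SD 1.71, n = 386), 4.30 with 6 to 10 (SD 2.22, n = 322) and 6.51 with over 10 (SD 3.05, n = 132). The 120 regions richest in each held 28.7% of Yki peaks and 28.6% of GAF peaks. The variance of the counts over their mean was 2.29 for Yki and 3.77 for GAF, and the highest counts were 17 and 37.

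Chromosome 4 stood apart from the 5 large arms. Yki peaks per Mb ranged from 26.6 on 2L to 32.6 on X, and GAF peaks per Mb from 44.2 on 2L to 59.2 on 2R, so that there were 0.544 to 0.602 Yki peaks per GAF peak on the 5 large arms. The small chromosome 4 had 62 Yki and 65 GAF peaks, or 0.954, and its Yki peaks lay on GAF in 29.0% of cases (18 of 62, 19.2 to 41.3), against 67.1 to 74.5% on the large arms. The scaffolds of heterochromatin and the unplaced ones held more Yki than GAF peaks, 97 against 47, with 7 of those 97 Yki peaks on GAF. Input reads at these repeat-rich sequences were not analysed here.

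Yki peaks lay on GAF slightly more often on X, though the call was not kept in every setting. Of 730 Yki peaks on X, 544 (74.5%, 71.2 to 77.5) lay on GAF, against 2011 of 2860 (70.3%, 68.6 to 72.0) on 2L, 2R, 3L and 3R, with an odds ratio of 1.23 (1.03 to 1.49). The two-sided Fisher's exact p was 0.0250, or 0.0333 once adjusted over 8 tests. Over quartiles of Yki width the odds ratio was 1.32 (1.09 to 1.61). These values count Yki peaks under the same GAF peak as separate, and single GAF peaks on X held 13, 9, 6 and 6 of them. The part of such linked peaks in the call was not tested. The call was lost with a reciprocal overlap of 50% (1.15, Fisher's exact p = 0.212) and in the widest 50% of each list (1.35, Fisher's exact p = 0.0685). From the GAF side, 34.2% (31.7 to 36.9) of X peaks and 32.7% (31.4 to 34.0) of autosomal peaks held Yki, with an odds ratio of 1.07 (0.942 to 1.22) and a Fisher's exact p of 0.284 before and after adjustment. Over quartiles of GAF width that odds ratio was 1.42 (1.17 to 1.71). GAF peaks on X were the narrower, with a median of 568 bp against 587 to 599 bp on the other large arms.

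The GAF peaks with most Yki peaks were on X. The widest GAF peak of the list, at chrX:3565882-3593771 on dm3 (27890 bp), held 13 Yki peaks of 200 to 2073 bp, which covered 33.7% of it at a median spacing of 1573.5 bp. In wing discs the same interval was broken into 8 GAF peaks and held 10 Yki peaks, and in embryos it held 2 H3K4me3 peaks. The next, at chrX:2185825-2202764 (16940 bp), held 9 Yki peaks of 332 to 1368 bp, with midpoints 910.5 to 2238.5 bp apart. It met 9 Yki and 3 GAF peaks in wing discs. Then came chrX:1834399-1846949 with 6 Yki peaks, chrX:3669147-3675424 with 6 and chr3L:17961188-17970444 with 5. All 5 also overlapped Yki, GAF and H3K4me3 peaks of the other lists. Of all 85 GAF peaks with 3 or more Yki peaks, 96.5%, 98.8% and 84.7% did.

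Chains with most peaks differed in make-up between the proteins. The Yki chain with most peaks was the same stretch of X, with 13 Yki peaks under 1 GAF peak. The next ones had 9 Yki peaks each and met 11 GAF peaks at chr3R:17441914-17466184, 4 at chrX:7584760-7604315, 5 at chr3L:11235780-11254958 and 8 at chr2R:6439119-6457112. The GAF chain with most peaks, chr3L:17979513-18029775 (50.3 kb), had 31 GAF and 9 Yki peaks. A chain of similar length at chr2R:7512930-7562593 had 19 GAF and 14 Yki peaks, and chr3R:19035788-19075145 had 20 GAF and 6 Yki peaks. That stretch of 3R met 5 GAF peaks and 1 Yki peak in wing discs, the fewest among the 5 GAF chains with most peaks for both lists.

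A few wide or clustered sites held 1 of the proteins alone. The widest GAF peaks without Yki were at chr2R:17062310-17066923 (4614 bp), 20458 bp from the nearest Yki peak, at chr2R:6117711-6121923 (4213 bp), 1726 bp away, and at chr3L:17584589-17588118 (3530 bp), 368 bp away. None of these 3 met an H3K4me3 peak or a Yki wing disc peak. Of the 230 GAF peaks of the widest quartile without Yki, only 14.8% and 29.1% did. The longest GAF chains without any Yki peak between their ends were at chr2R:6990514-7004410 (5 GAF peaks), chr2L:18455563-18469145 (8 GAF peaks) and chr2R:5888829-5901009 (11 GAF peaks). The chain on 2L, with 0 Yki peaks in embryos, held 6 Yki peaks in wing discs. The widest Yki peaks without GAF were at chr2L:12434471-12436591 (2121 bp), chr3L:11054197-11056173 (1977 bp) and chr2L:5009667-5011625 (1959 bp), between 4119 and 13221 bp from the nearest GAF peak. All 3 overlapped embryo H3K4me3 and 2 Yki wing disc peaks each. Among all Yki peaks 1 to 5 kb and 5 to 20 kb from GAF, 58.7% and 58.4% overlapped H3K4me3. The Yki wing disc list overlapped 64.2% and 59.6% of them. Genes and DNA sequence at these positions were not analysed here, as no dm3 genome or annotation was used.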

How the data were processed

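The deposited files are peak lists with starts and ends in bp, counted from 0 by the authors and printed here from 1. Per the submitters' processing notes, CASAVA 1.7.0, BWA and Bowtie were used and positions are on dm3. For the embryo lists the caller, its thresholds, the pooling of replicates and any use of input are not stated in these sources. Names in the wing disc lists begin with MACS, per the files, and the score there is the authors' own, used to rank peaks within a list. Overlap needed at least 1 bp. Shares carry Wilson intervals and odds ratios Wald intervals. Class contrasts used Fisher's exact test, two-sided, with Benjamini-Hochberg adjustment over 8 tests, and Mantel-Haenszel odds ratios over width classes. The p-values treat peaks as independent and describe these lists alone. Tiles and regions ran to the last peak end of the 5 lists on an arm. Regions were named by fixed rules: the 5 GAF peaks with most Yki peaks, the 5 chains of each protein with most peaks, and the 3 widest peaks or longest GAF chains without the other protein, on the large arms. Steps were tested on simulated lists. Members, classes and rules were chosen with earlier results of these data known. Tools were Python 3.11.15, numpy 2.4.6, pandas 2.3.3, scipy 1.17.1, statsmodels 0.14.6 and matplotlib 3.10.9.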

Additional observations from a re-analysis of the deposited data

Results flagged for a closer look

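Narrow GAF peaks held Yki far more often in wing discs than in embryos, a comparison chosen after the data were seen. For GAF peaks of 200 to 352 bp the share with Yki of the same tissue was 23.5% (21.5 to 25.7) of 1566 in wing discs and 2.22% (1.61 to 3.06) of 1618 in embryos, with an odds ratio of 13.5 (9.51 to 19.2) and a two-sided Fisher's exact p, adjusted over 8 tests, of 2.80e-81. At 353 to 583 bp the shares were 32.9% (30.5 to 35.4) and 6.23% (5.15 to 7.51), an odds ratio of 7.38 (5.86 to 9.30; adjusted Fisher's exact p = 2.80e-81). At 584 to 1093 bp they were 53.7% (51.2 to 56.2) and 36.8% (34.5 to 39.2), an odds ratio of 1.99 (1.73 to 2.30; adjusted Fisher's exact p = 5.06e-21). From 1094 bp they were 87.9% (86.4 to 89.3) and 85.8% (84.0 to 87.4), an odds ratio of 1.21 (0.992 to 1.47; adjusted Fisher's exact p = 0.0713).

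The wing disc Yki list is the longer, with 6491 peaks against 3749 and 3.53 Mb covered against 2.11 Mb. The share of tiles touched by wing disc Yki peaks was not counted. With only its 3749 highest-scoring peaks the share was 14.6% (13.0 to 16.5) at 200 to 352 bp and 18.3% (16.4 to 20.5) at 353 to 583 bp, and the odds ratios were 7.53 (5.26 to 10.8) and 3.38 (2.65 to 4.31). At 584 to 1093 bp the share was 36.8% (34.4 to 39.3), the same as in embryos, and from 1094 bp 75.2% (73.2 to 77.1), below embryos. The wing disc lists rest on 1 Yki library and 2 GAF libraries, against 3 for each embryo list. Calling and library numbers thus differ between the tissues and cannot be told apart from tissue. The p-values count peaks, not samples, so they do not measure a difference between tissues beyond these lists.

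Single enclosed Yki peaks lay in the middle 50% of the room left in their GAF peak in 62.6% (60.2 to 65.1) of 1499 cases in wing discs and 72.9% (70.7 to 75.1) of 1570 in embryos, an odds ratio of 0.622 (0.534 to 0.725; adjusted Fisher's exact p = 2.38e-09), also chosen after the data were seen. GAF width was not matched in this contrast. Peaks wider than 1000 bp made up 32.6% of the GAF wing disc list and 28.0% of the GAF embryo list. The p-value counts peaks, not samples, and the wing disc Yki list rests on 1 library. Tissue, calling and GAF width cannot be told apart here.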

How the results depend on the processing

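The lists hold no value per replicate, so no replicate could be left out. No paired analysis was possible because each antibody has 1 list for its 3 libraries. Sequence and gene overlap could not be run without a dm3 genome. The share of Yki peaks on GAF was 15.4% with a reciprocal overlap of 50%, 66.5% with the Yki midpoint inside the GAF peak, 79.6% in the widest 50% of each list and 71.2% on the large arms alone. A reciprocal overlap of 50% admits only pairs of similar width and at most 1 Yki peak per GAF peak, so the share of GAF peaks with Yki that held 2 or more was 0% there, and it was 14.6% in the widest 50%, against 16.4%. Midpoints in the middle 50% numbered 90.2% in GAF peaks with 1 Yki peak and 63.2% in the room left by all enclosed peaks. Measured between midpoints, 9.07% of Yki peaks off GAF were within 1 kb of one. Median spacing was 28.6 kb for Yki and 16.9 kb for GAF in the widest 50% of each list, and 7.93 kb for GAF with peaks under 100 bp apart joined. The odds ratio for chains was 0.428 (0.342 to 0.535) with the reciprocal overlap and 0.919 with gaps of 10 kb, and for Yki with GAF on X 1.15 with the reciprocal overlap and 1.35 in the widest 50%, each in the main direction and all but the first without the call. Spearman's rho of counts was 0.65 in regions of 50 kb and 0.76 in regions of 200 kb. With the highest-scoring wing disc Yki peaks, the odds of Yki on GAF in wing discs over embryos were 1.00 (1.99 with all peaks) at 584 to 1093 bp and turned to 0.504 (from 1.21) from 1094 bp. Of 38 alternatives, 19 kept the direction and the side of the threshold or, for values without a test, stayed within the interval of the reported value.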

Other observations

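GAF embryo peaks without a Yki embryo peak were not without Yki everywhere. Of the 4352, 703 (16.2%, 15.1 to 17.3) overlapped a Yki wing disc peak and 1900 (43.7%, 42.2 to 45.1) a GAF wing disc peak. Both shares rose with GAF width. At 200 to 352 bp 7.96% (6.73 to 9.40) met wing disc Yki and 28.5% (26.3 to 30.8) wing disc GAF, and from 1094 bp 29.1% (23.6 to 35.3) and 70.4% (64.2 to 76.0). The few narrow GAF peaks that did hold embryo Yki met the wing disc lists in a larger share of cases: of the 35 GAF peaks of 200 to 352 bp with 1 Yki embryo peak, 24 (68.6%, 52.0 to 81.4) met wing disc Yki and 29 (82.9%, 67.3 to 91.9) wing disc GAF.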
